A study of Homo sapiens with 40 samples.

Results

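Microexons are exons so short that they add only a few amino acids to a protein or move its reading frame. The catalogue of transcript models for the series held 413 of them among 58153 distinct internal exons (0.71%). An internal exon was one that was neither first nor last in its model, and the microexons were chosen by length, from 3 to 30 nt. They were then grouped by 3 further properties read from the models: whether another model of the gene skips the exon, where the exon lies relative to the coding region, and whether its length is divisible by 3. These 4 properties chose and sorted the exons, so they are given as descriptions without a test.

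The study followed the translation of mRNA isoforms while H9, an established human embryonic stem cell line, became neural progenitors. Its 40 libraries came from neural progenitor cells (NPC, made by dual-SMAD inhibition, which blocks BMP and TGF-beta signalling) and from control embryonic stem cells (ESC), both H9. In each cell type polyadenylated RNA was taken from heavy polyribosomes (5 or more ribosomes), light polyribosomes (2 to 4 ribosomes), monosomes and cytosol. These 8 groups were sequenced with long reads in 2 libraries each and with short reads in 3 libraries each. The transcript models form 1 catalogue with no count, level or value per library, so NPC and ESC, or the fractions, are not compared, and the markers of the cell types could not be checked. The depth behind a model is unknown, so an exon or gene that is missing from the catalogue is not shown to be missing from the cells, and 1 model counts as much as any other whatever its abundance.

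In general, an exon is recognised through the splice sites at its ends and through proteins that bind it, and a very short exon leaves little room for both to be bound at once. Many microexons of the nervous system depend on the splicing factor SRRM4 and on an enhancer just upstream of the exon, while PTBP1 represses a number of them in other cells. An exon whose length is divisible by 3 can be included or skipped without changing the frame downstream; any other length changes it.

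The sequences of 2 microexons could be read, because these exons lie inside windows for which RefSeq sequence of the build GRCh38.p14 was at hand. They are shown because they give the whole of what such an exon contributes, with the splice-site bases on both sides. Each is given 5′ to 3′ on the strand of its gene, with the exon in capitals and the last 2 bases of the upstream intron and the first 2 of the downstream intron in lower case.
SFXN5: agGTTATATTCCTTTTGGGACGCCAATTgt
TIMM50: agATTCCTGATGAGTTCGACAATGgt
SFXN5, a member of the sideroflexin family of mitochondrial carriers, has its 26 nt exon at chr2:73020239-73020264 on the minus strand. TIMM50, a subunit of the translocase that brings proteins into the mitochondrial matrix, has its 22 nt exon at chr19:39483135-39483156 on the plus strand. Neither length is divisible by 3. Both exons were bounded by AG and GT, as were all 45 internal exons of any length that lie in such windows, so the deposited coordinates were read as GRCh38.

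The 413 microexons lay in 359 of 9460 genes (3.79%) and in 717 of 19972 models (3.59%). RefSeq's table named 356 of the host genes, of which 351 are protein-coding, 4 are long non-coding RNA genes and 1 is a transcribed pseudogene. The exons occupied 412 positions, because 1 exon of 30 nt at chr19:35752804-35752833 is listed under LIN37 and under a second identifier. Lengths ran from 10 to 30 nt with a median of 26 nt, against a median of 116 nt for all internal exons. No internal exon of 3 to 9 nt was present, and 17 were of 12 nt or less. The count climbed with length but not evenly. There were 13 exons of 12 nt but 3 each of 11, 13 and 14 nt, and 53 of 27 nt against 26 of 26 nt and 23 of 28 nt. Just inside the limit were 69 exons of 30 nt, of which 6 were skipped and 61 lay inside a coding region. Just outside it were 48 exons of 31 nt, of which 5 were skipped and 41 lay inside a coding region. The next length divisible by 3, 33 nt, had 101 exons.

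**Figure D1:**
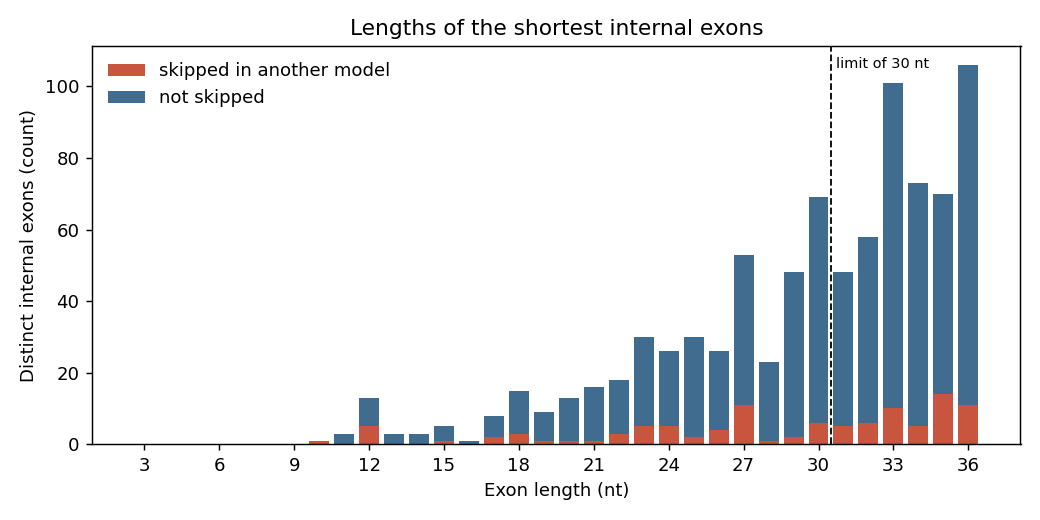
Number of distinct internal exons (vertical axis) at each exon length in nt (horizontal axis), split into those skipped in another model and those not skipped. The bars begin at 10 nt, stand out from their neighbours at 12, 27, 30 and 33 nt, and run on without a break across the limit of 30 nt.

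The shortest exon was 10 nt long, at chr19:17217453-17217462 in USE1, a SNARE of the endoplasmic reticulum that takes up vesicles returning from the Golgi. Of 7 USE1 models, 4 held this exon and 2 skipped it, and it was followed 901 nt downstream by a microexon of 28 nt. An exon of 11 nt was present in 3 genes: TNNT2, the troponin T of heart muscle; LMF1, a factor needed to mature lipases; and SEPTIN5, a septin found in neurons. None of these 3 exons counted as skipped, but LMF1 and SEPTIN5 had 1 model each, in which skipping could not have been seen. Of the 13 exons of 12 nt, 5 were skipped, and all 5 lay inside a coding region. Their genes were UCHL1 and UCHL3, which encode ubiquitin hydrolases, VPS29, a subunit of the retromer that sorts endosomal cargo, STX16, a SNARE of the trans-Golgi, and ESPN, which bundles actin. The other 8 exons of 12 nt were in AP4S1, CAPN2, COMMD6, ERO1A, IDH3G, RABEP2, SUPT5H and TEAD3, none of them skipped. The exon of IDH3G lay in the 5′ UTR and that of COMMD6 in a model without a coding region. AP4S1, CAPN2, ERO1A and TEAD3 had 1 model each, and of the 2 models of SUPT5H only 1 spans the exon, so skipping could not have been seen in these genes.

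A microexon was called skipped when another model of the gene joined its flanking splice sites directly. This held for 54 of 413 microexons (13.1%, 95% Wilson interval 10.2 to 16.7), in 53 genes, against 6.14% of all internal exons. Skipping needs a second model, and 155 microexons lay in genes with 1 model. Among the 258 microexons in genes with at least 2 models, 20.9% (16.4 to 26.3) were skipped, against 11.0% of all internal exons in such genes. By length the share of microexons skipped was 33.3% (17.2 to 54.6) for 15 nt or less, 25.0% (12.7 to 43.4) for 16 to 20 nt, 19.3% (12.2 to 29.0) for 21 to 25 nt and 19.0% (13.1 to 26.8) for 26 to 30 nt. These intervals overlap one another. They also overlap that of exons of 31 to 45 nt, at 17.6% (15.3 to 20.2), so the values form no step at the limit of 30 nt. No difference between microexons and longer exons was tested, since exons are not replicates and the microexons were chosen with earlier results known. The intervals cover counting error only.

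Most skipped microexons rested on few models. Of the 54, 29 were held by 1 model and 39 were skipped by exactly 1, and 9 had at least 2 models on both sides. The same counts are not given for all skipped internal exons, so they are not read as a trait of microexons. More models held the exon than skipped it in 21 cases, the numbers were equal in 27, and more models skipped it in 6. Counting the models that hold or skip it, the skipped coding exon with most was that of ZSWIM7, which encodes a protein of homologous recombination. Its 22 nt exon was held by 15 models and skipped by 1. The exon lay inside the coding region in 4 of the 15. FIP1L1, a subunit of the polyadenylation machinery, had 5 models with its 27 nt exon and 4 without. SGCE, epsilon-sarcoglycan, had 5 with its 27 nt exon and 2 without. MAX, the DNA-binding partner of MYC, had 3 with its 27 nt exon, inside the coding region in 2 of them, and 3 without. GTF3C5, a subunit of the RNA polymerase III factor TFIIIC, had 1 with its 21 nt exon and 3 without.

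A further 16 microexons were covered by an intron of another model that did not join the same flanking sites, for a total of 70 covered exons. They included the 11 and 15 nt exons of TNNT2, both covered in 1 of its 4 models, the 22 nt exon of TIMM50 shown above, covered in 1 of 3 models, and the 19 nt exon of HACD1, covered in 3 of 6 models. HACD1 encodes a dehydratase that makes very-long-chain fatty acids. In these models the intron ended at another splice site on at least 1 side. In TNNT2 it left out the 11 and 15 nt exons together and ended at sites that other models also use. Whether other covered exons are left out jointly with a neighbour was not examined.

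Placement was scored in the models that hold the exon, and an exon counted as inside the coding region when all of its bases were coding in at least 1 of them. This held for 350 of 413 microexons (84.7%, 81.0 to 87.9), against 87.4% of all internal exons. The remaining 63 comprised 27 in models without a coding region, 25 in the 5′ UTR, 5 that hold the first coding base, 3 that hold the last and 3 in the 3′ UTR. Placement follows the coding regions as deposited, and whether these are complete is not known. In ANKRD36B, for example, exons of 29 nt lay both inside and 5′ of a deposited coding region of 100 codons. Of the microexons inside a coding region, 37 were skipped (10.6%, 7.77 to 14.2), against 4.2% of all internal exons there. Of those elsewhere, 17 of 63 were skipped (27%, 17.6 to 39.0), against 19.6% of all internal exons there. The difference between inside and elsewhere was not tested.

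Of all 413 microexons, 197 had a length divisible by 3 (47.7%, 42.9 to 52.5), against 37.9% of all internal exons. Inside coding regions it was 168 of 350 (48.0%, 42.8 to 53.2), against 38.4%. The share over all microexons depended on the last length admitted. With a limit of 27 nt it was 46.9% (128 of 273). The 69 exons of 30 nt are all divisible by 3, so leaving them out had to lower the share. Without them, 128 of 344 (37.2%, 32.3 to 42.4) were divisible by 3. By length it was 65.2% (44.9 to 81.2) of coding microexons of 15 nt or less, 31.6% (19.1 to 47.5) of those of 16 to 20 nt, 32.3% (23.9 to 42.0) of those of 21 to 25 nt and 57.4% (50.3 to 64.2) of those of 26 to 30 nt. The classes do not hold equal numbers of lengths divisible by 3.

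**Figure D2:**
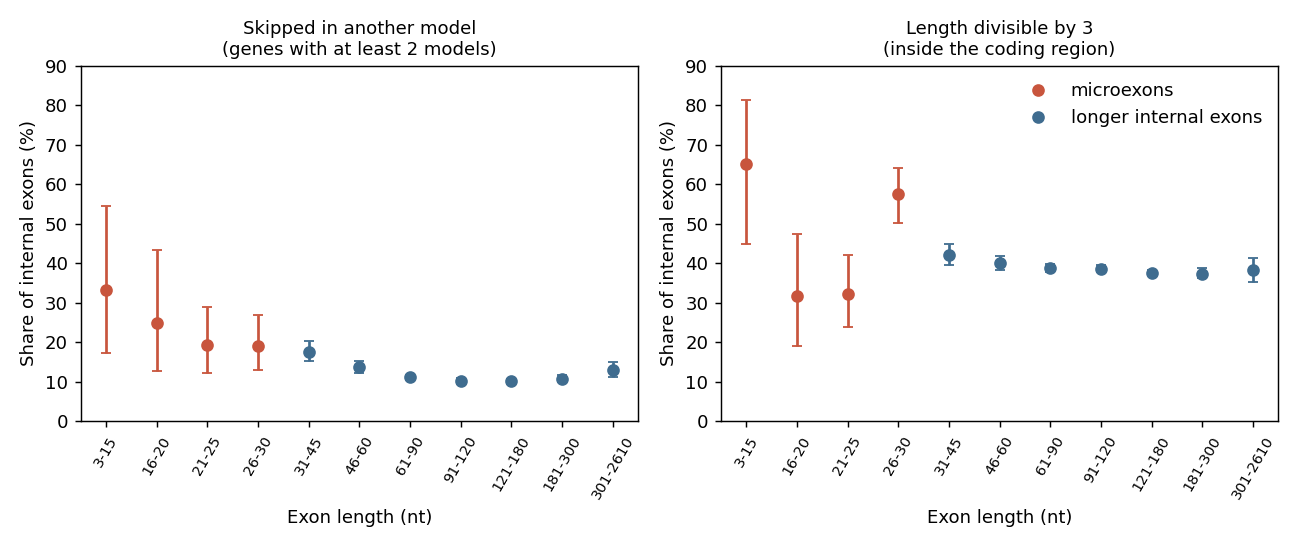
Share of internal exons (%) by exon length in nt, with 95% Wilson intervals. At left is the share skipped, in genes with at least 2 models, and at right the share divisible by 3 among exons inside a coding region. Microexons are the 4 classes up to 30 nt. The skipped share runs from 33.3% in the shortest class to 17.6% at 31 to 45 nt, is lowest at 121 to 180 nt (10.1%) and is 13.0% in the longest class, and the share divisible by 3 is uneven below 30 nt and close to 40.0% or less from 46 nt on.

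Frame was also read within the skipped exons. Of the 37 skipped microexons inside a coding region, 27 were divisible by 3 (73.0%, 57.0 to 84.6), against 44.1% of all skipped internal exons inside one. Of the 313 that were not skipped, 141 were divisible by 3 (45.0%, 39.6 to 50.6), against 38.2% of all such internal exons. Without exons of 30 nt, 21 of 31 skipped coding microexons (67.7%, 50.1 to 81.4) were divisible by 3. Outside coding regions, 29 of 63 microexons (46.0%, 34.3 to 58.2) were divisible by 3, against 34.0% of all internal exons there.

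The frame can be followed in pairs of coding models, 1 with the exon and 1 without. Of the 27 skipped coding microexons divisible by 3, 26 had a coding model that skips them, and for 24 a pair differed by the microexon alone. All 24 pairs had the same first and last coding base, and the shorter coding region lacked 4 to 10 codons. With both ends kept, that number follows from the length of the exon. Every codon of the deposited coding region is counted, the final one too. UCHL1 had 224 codons with its exon and 220 without, and UCHL3 had 231 and 227. VPS29 had 187 with and 183 without, the exon starting at codon 2, and ESPN had 289 with and 285 without. CHCHD3, a subunit of the complex that shapes mitochondrial cristae, had 233 with its 15 nt exon and 228 without. ANXA6, a calcium-dependent membrane-binding annexin, had 674 with its 18 nt exon and 668 without. TRAPPC13, a subunit of a vesicle-tethering complex, had 419 with its 18 nt exon and 413 without.

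Exons of 21 to 27 nt gave pairs of the same kind. GTF3C5 had 527 codons with and 520 without. RFFL, a ubiquitin ligase, had 364 with its 24 nt exon and 356 without, and SH3GLB2, an endophilin that bends membranes, had 396 with its 24 nt exon and 388 without. MAX had 161 with and 152 without, the exon beginning at codon 13. FIP1L1 had 589 with and 580 without, NARS2, the mitochondrial asparaginyl-tRNA synthetase, 478 with and 469 without, and RCHY1, a ubiquitin ligase, 262 with and 253 without. SGCE had 414 with and 405 without, and SFXN4, a sideroflexin, had 338 with and 329 without. APLP1, a relative of the amyloid precursor protein, had 2 versions of 1 exon that share the 3′ end. The 27 nt version gave 652 codons and the 24 nt version 651, against 643 in the model that skips both.

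Exons of 30 nt added 10 codons in 6 genes. PPP3CC, a catalytic subunit of the phosphatase calcineurin, had 513 codons with its exon and 503 without. TNNT2 had 296 with and 286 without, UBE2F, which conjugates the ubiquitin-like NEDD8, had 186 with and 176 without, and YIPF3, a protein of the Golgi membrane, had 317 with and 307 without. The remaining genes were IFI27L2 and TMEM220. In the remaining genes the pair also differed elsewhere: STX16 had 309 codons with its 12 nt exon and 270 without, and NCOR1, a corepressor of nuclear receptors, had 554 with its 27 nt exon and 544 without. UQCRH, a subunit of respiratory complex III, had no coding model that skips its 27 nt exon.

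**Figure D3:**
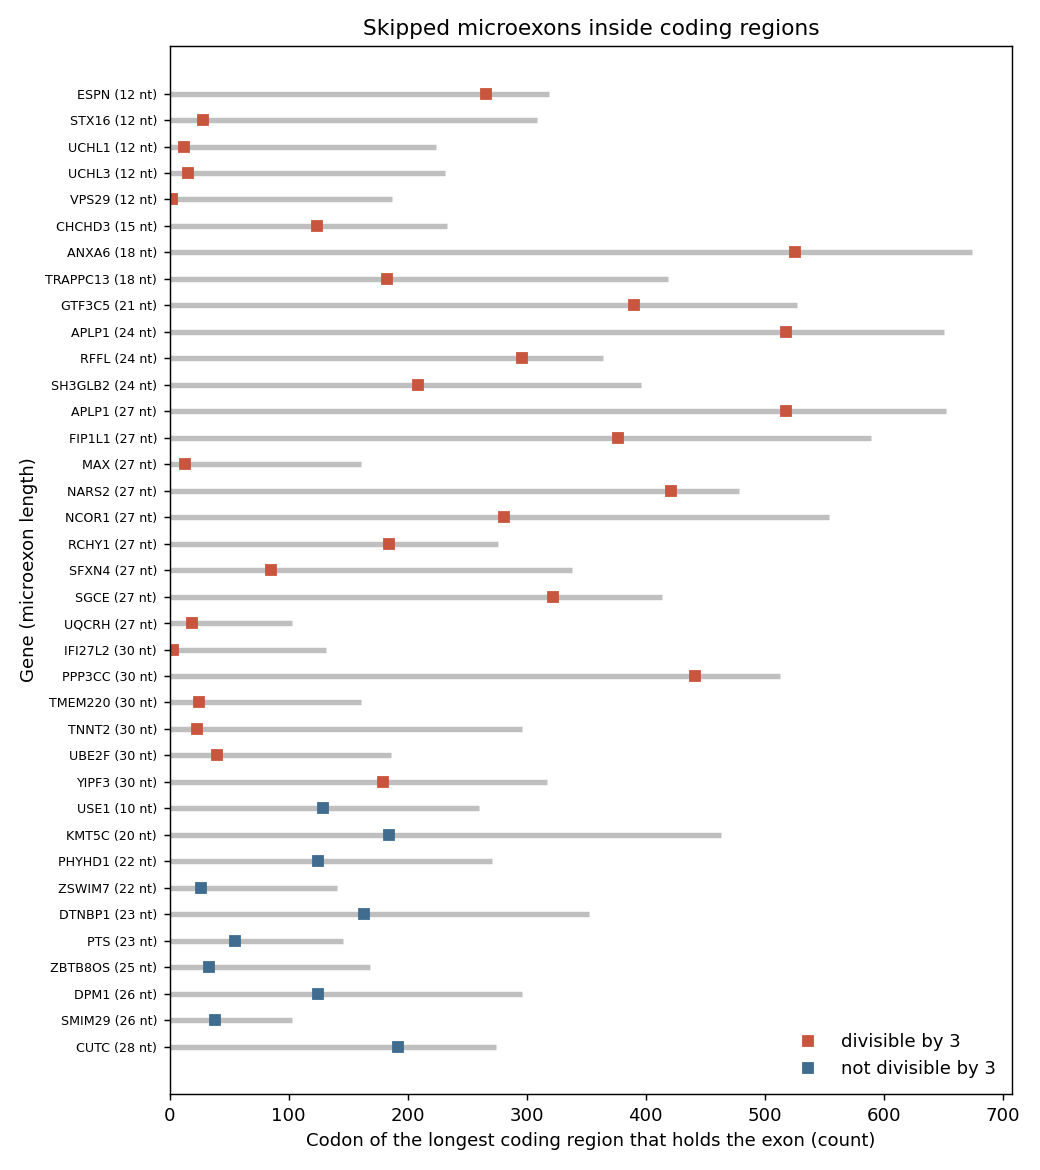
The 37 skipped microexons inside a coding region. Each grey bar is the longest coding region that holds the exon, in codons on the horizontal axis, and the square marks the codon at which the microexon begins, for 27 exons divisible by 3 and 10 others. Squares lie near the start (VPS29, codon 2) and near the end (NARS2, codon 421 of 478), and both kinds are spread along the bars.

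The 10 skipped coding microexons not divisible by 3 gave 8 pairs that differed by the microexon alone, and none kept both the first and the last coding base. Coding regions made of whole codons cannot keep both when only such an exon is removed, so this outcome follows from exon length. USE1 had 260 codons with its 10 nt exon and 126 without. DTNBP1, which encodes dysbindin, a subunit of the complex that forms lysosome-related organelles, had 352 with its 23 nt exon and 169 without. DPM1, the catalytic subunit of dolichol-phosphate-mannose synthase, had 261 with its 26 nt exon and 145 without. ZBTB8OS, a factor of the tRNA ligase complex, had 168 with its 25 nt exon and 111 without. KMT5C, which methylates histone H4, had 348 with its 20 nt exon and 274 without. CUTC, linked to copper handling, had 274 with its 28 nt exon and 195 without. In these 6 genes the coding region was shorter without the exon. In 2 others it was longer without it: PHYHD1 had 253 codons with its 22 nt exon and 259 without, and SMIM29 had 103 with its 26 nt exon and 140 without. The first coding base was kept in 2 of the 8 pairs, those of PHYHD1 and CUTC. In USE1, KMT5C, DTNBP1, ZBTB8OS and DPM1 the last coding base was kept instead. There the model without the exon was given a coding region that begins at a different base. ZSWIM7 and PTS gave no such pair.

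A coding model was listed as a candidate for nonsense-mediated decay, which removes mRNA with an early stop codon, when more than 50 nt of the model lay between the end of the coding region and its final exon junction. Of 656 coding models with a microexon, 16 met this rule (2.44%, 1.51 to 3.93), against 3.14% of all coding models. Among the 8 frame-changing pairs above, the model without the exon was a candidate in 1, CUTC, and no model with the exon was. In USE1, KMT5C, DTNBP1, ZBTB8OS and DPM1 both models share the last coding base and the introns after it. The rule must therefore give both models of such a pair the same outcome, so these pairs do not show how often skipping leads to decay.

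The codon phase is the position of the exon's first base in its codon. It was 0 (first base of a codon) for 148 coding microexons (42.3%, 37.2 to 47.5), against 46.9% of all coding internal exons. Phase 1 held for 122 (34.9%, 30.1 to 40.0), against 30.3%, and phase 2 for 80 (22.9%, 18.8 to 27.5), against 22.8%. Of the 168 coding microexons divisible by 3, 76 were in phase 0 and so added whole codons (45.2%, 37.9 to 52.8), against 59.6% of all such internal exons. Of the 27 skipped ones, 14 were in phase 0. Their genes included UCHL1, UCHL3, VPS29, STX16, CHCHD3, MAX and GTF3C5. ESPN, APLP1, FIP1L1, NARS2 and SGCE were in another phase, so the codons at both ends of the exon are split across junctions. The same count is not given for all skipped internal exons, so the 14 of 27 is not read as a trait of microexons.

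The median position of coding microexons was 40.4% of the length of the coding region, against 48.3% for all coding internal exons. The first 20% of the coding region held 106 of 350 (30.3%, 25.7 to 35.3), against 15.8% of all coding internal exons and 23.0% (21.8 to 24.3) of those of 31 to 60 nt. Position was not used in choosing the exons, but it is not independent of their length. Position was taken at the middle of exons lying wholly inside the coding region, so a short exon can lie nearer to either end. From 90 to 100% of the coding region the share of microexons was also higher, at 6.29% against 3.16% of all coding internal exons. From 80 to 90% it was lower, at 6.86% against 9.4%. The values are therefore not read as a preference for the start. The differences were not tested, and in the first 20% the value for exons of 31 to 60 nt lies between the others. The microexon was second in its model in 91 cases (22.0%), against 19.3% of all internal exons, and next to last in 65 (15.7%), against 18.8%.

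The introns beside microexons were measured as the shortest version of each. The shorter of the 2 flanking introns had a median of 526 nt (quartiles 145 and 1435 nt), against 708 nt for all internal exons and 606.5 nt for those of 31 to 60 nt. It was under 200 nt for 128 microexons (31.0%), against 24.2% of all internal exons. The upstream intron had a median of 1246 nt, against 1487 nt for all internal exons, and the downstream intron a median of 912 nt, against 1332 nt. Skipped microexons had a shorter flank of 725 nt at the median (95% interval of the median 389 to 1116 nt), against 508 nt (393 to 594 nt) for those not skipped, and the intervals overlap. The longest introns beside a microexon were 163478 nt in EIPR1, 135957 nt in MACROD1, 121892 nt in TMEFF2, 88180 nt in CHCHD3 and 84701 nt in MSRB3. In CHCHD3 the exon after that intron is 15 nt long and is skipped in 1 of 2 models. The shortest were 74 nt in ARAF, 77 nt in CNKSR1, CXXC1 and HACD1, and 78 nt in TSPAN17. No microexon had an intron below 60 nt on either side.

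**Figure D4:**
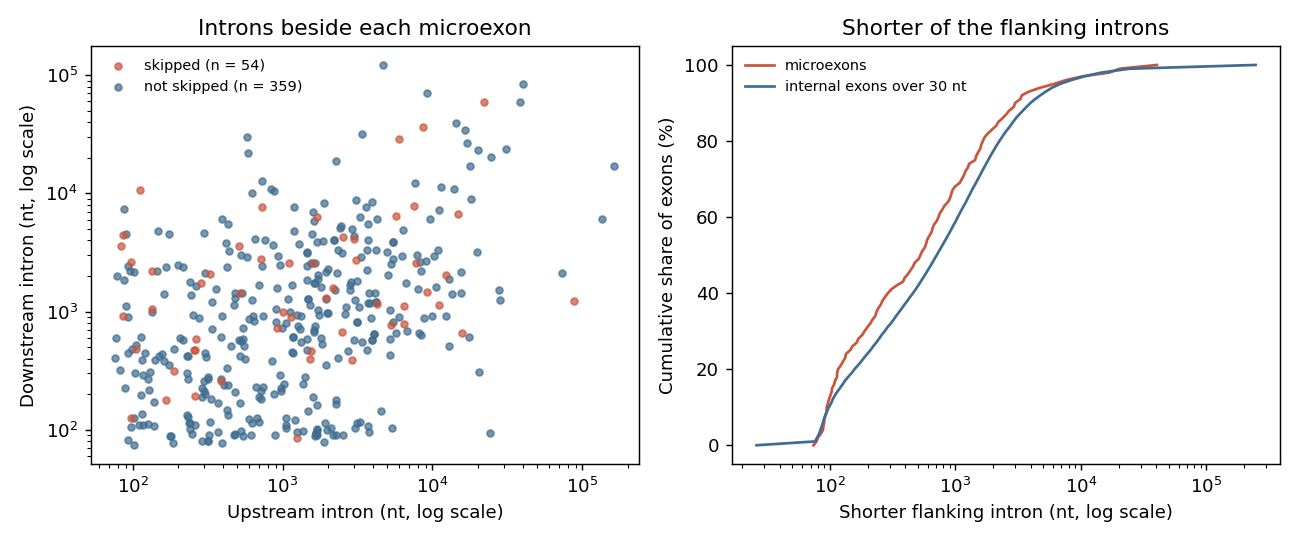
At left, the shortest upstream intron (horizontal axis) and downstream intron (vertical axis) of each microexon in nt on log axes, for 54 skipped and 359 not skipped exons, which occupy the same area. At right, the cumulative share of exons (%) by the shorter flanking intron (nt, log axis), with the curve of microexons (median 526 nt) left of that of internal exons over 30 nt (median 710 nt) over most of its height.

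Some microexons are one form of an exon that is longer in another model. This held for 59 of 413 (14.3%, 11.2 to 18.0), against 6.63% of all internal exons. Of 2 overlapping forms only the shorter is counted, so choosing short exons favours a higher share. The difference is therefore not read as a trait of microexons. In 41 of them a longer internal exon shared 1 splice site, in 13 the last exon of another model overlapped, in 7 the first exon, and in 2 the microexon lay within a longer internal exon; some had more than 1 of these. CA14, a membrane-bound carbonic anhydrase, had a 21 nt exon in 6 of 9 models and an 18 nt form in the other 3, both ending at the same base. NRGN, neurogranin, a calmodulin-binding protein of neurons, had a 21 nt and an 18 nt form in 1 model each, both in the 3′ UTR. These differ by 3 nt at the 5′ end of the exon, as do the forms in APLP1. PAX6, a transcription factor of the neural ectoderm, had a 15 nt exon in 1 of its 9 models that shares 1 splice site with a longer exon in others. The 10 nt exon of USE1 overlapped the last exon of another model.

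Among the host genes, 38 had at least 2 microexons, 30 of them with exactly 2. In 20 cases, in 17 genes, 1 microexon directly followed another. TNNT2 had 3 in a row of 11, 15 and 30 nt, beginning at codons 14, 18 and 23, and TNNT1, the troponin T of slow skeletal muscle, had exons of 14, 27 and 22 nt. In the longest coding region of TNNT1 these began at codons 11, 16 and 36, with another exon between the 27 and 22 nt exons, while other models joined those 2 directly across an intron of 1115 nt. Under the definition of skipping used here, only the 30 nt exon of TNNT2 counted as skipped, in 1 model against 3 that hold it. In TNNT2, 1 of the 3 models with the 30 nt exon joined it directly to the exon before the 11 nt exon. That model left out the 11 and 15 nt exons together, across an intron of 3368 nt. SUGT1, a co-chaperone of HSP90, had exons of 17 and 23 nt separated by an intron of 922 nt. ERO1A, an oxidase of the endoplasmic reticulum, had exons of 12 and 27 nt separated by 3142 nt, and HMGN5, a nucleosome-binding protein, had 2 exons of 30 nt separated by 1028 nt. MAP2K5, a kinase kinase, had exons of 30 and 27 nt separated by 20285 nt. PRPF40B, a splicing factor, had 3 exons of 28, 26 and 25 nt, the first pair adjacent.

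Collagen genes held several sets. COL18A1, which encodes the chain that endostatin is cut from, had 5 exons of 27 nt and 1 of 30 nt in its 1 model, all in phase 0, between codons 408 and 793 of 1340. COL6A1, a chain of collagen VI, had 2 exons of 21 nt, 2 of 27 nt and 1 of 30 nt, of which the first 4 lay 5′ of the deposited coding region of 360 codons. COL9A3 had an exon of 24 nt in phase 0. All microexons of COL18A1, COL6A1 and COL9A3 named here have a length divisible by 3. Collagen triple helices are built from repeats of a glycine and a further pair of residues. ANKRD36B had 6 exons of 29 nt, but this gene has near-identical copies, so the assignment of its reads is uncertain.

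Some related genes carried a microexon of the same length and phase. In 25 of 32 such sets the exons lay within 10 percentage points of each other in the coding region. The longer exons of these genes are not given for comparison. Families were drawn up after the values had been seen, so their counts describe and support nothing. Of 41 families with at least 2 host genes, 29 had at least 2 genes whose microexons share both length and phase inside the coding region, and these took in 69 of 103 genes; 12 families had none. The RAD6-type ubiquitin-conjugating enzymes UBE2A and UBE2B both had a 26 nt exon that begins at codon 42 of 153. NECAB2 and NECAB3, neuronal calcium-binding proteins, each had a 25 nt exon 319 codons before the end and a 26 nt exon 275 codons before the end. The parvins PARVA and PARVB, which link integrins to actin, had a 20 nt exon 134 codons before the end. HACD1 and HACD2 had a 19 nt exon 163 codons before the end, and RNF5 and RNF185, ubiquitin ligases of the endoplasmic reticulum, had a 19 nt exon 134 codons before the end. HPRT1, the purine salvage enzyme, and its relative PRTFDC1 had an 18 nt exon 90 codons before the end. In 11 families the distance to the end was identical in at least 2 genes. One of these, RABL2A and RABL2B, is a pair of near-identical copies whose reads cannot be told apart with certainty.

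The TRIM proteins, many of them ubiquitin ligases of innate immunity, formed the set with the most genes among these families. A 23 nt exon in phase 0 occurred in 9 of 24 TRIM and TRIML genes with a model: TRIM5, TRIM11, TRIM21, TRIM22, TRIM27, TRIM35, TRIM39, TRIM54 and TRIML2. In 8 of these it began between codons 208 and 261, and in TRIM54 at codon 282. TRIM5, TRIM22 and TRIM27 also had a 27 nt exon in phase 1, which began 204 codons before the end in TRIM5 and 207 codons before it in both TRIM22 and TRIM27. None of these exons was skipped, but only the 23 nt exons of TRIM11, TRIM27 and TRIML2 were spanned by 2 models, and skipping could not have been seen in the rest. The nucleosome-binding HMGN proteins had an exon of 30 nt in 4 of 5 genes with a model.

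The sideroflexins connect to the SFXN5 sequence above. Its 26 nt exon began at codon 111 of 341 in phase 1, and SFXN4 had a 26 nt exon at codon 112 of 338 in the same phase. Both genes also had a 27 nt exon in phase 0, at codon 84 in SFXN5 and at codon 85 in SFXN4. The 27 nt exon of SFXN4 was skipped in 1 of 2 models. That of SFXN5 was spanned by 1 model only, so skipping could not have been seen there and the genes cannot be compared in this. UCHL1 and UCHL3 had their skipped 12 nt exons at codons 12 and 15, both in phase 0. The m6A readers YTHDF1 and YTHDF2 had a 25 nt exon at codon 10.

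**Figure D5:**
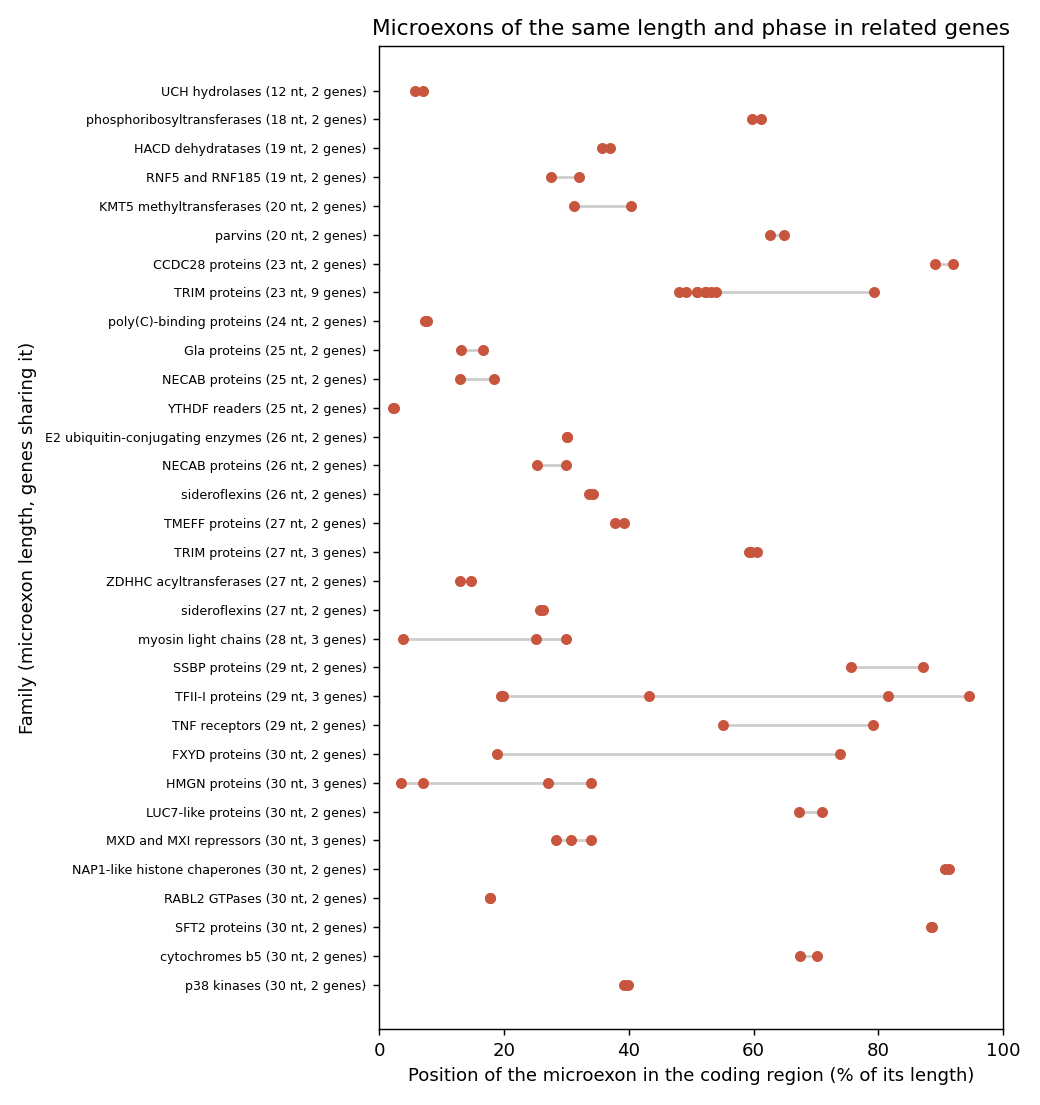
Position of the microexon in the coding region (% of its length, horizontal axis) for each set of related genes that share a microexon of the same length and phase (vertical axis). Each point is 1 microexon, and grey lines join a set. In 25 of 32 sets the points lie within 10 percentage points of each other, and the widest sets include the TFII-I proteins, the FXYD proteins and the TRIM proteins of 23 nt.

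Other families did not share length and phase together. F11R and JAM2, junctional adhesion molecules, had exons of 13 and 16 nt, both in phase 1 and 32 and 30 codons before the end. FAM3A and FAM3C, secreted proteins, had exons of 24 and 30 nt, both in phase 1 and both 188 codons before the end. In each pair the lengths differ by a multiple of 3. The troponins T and the collagens did not share both between genes, though collagen genes shared the lengths 24, 27 and 30 nt.

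Of 48 genes known for neural microexons, 16 had a model and 1 of these had a microexon (6.25%), against 3.79% of all genes with a model. This was an 18 nt exon at chr9:128627925-128627942 in SPTAN1, the non-erythroid alpha-spectrin of the membrane skeleton. Of the 2 SPTAN1 models only 1 spans the exon, and it holds it, so skipping could not have been seen. The 15 others with a model and no microexon included BIN1, which curves membranes, CLASP2, which stabilises microtubule ends, CPEB4, which regulates polyadenylation, KDM1A, the histone demethylase LSD1, and MEF2A, a transcription factor. Of 22 regulators of microexon splicing and relatives, 11 had a model, among them PTBP1, PTBP2, QKI and SRRM2, and 1 had a microexon, the 24 nt exon of the poly(C)-binding protein PCBP2, present in all 8 of its models. PCBP4 had an exon of the same length and phase.

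Each of 3 lists of genes by cellular role had 4 genes with a microexon. Among SNAREs and vesicle trafficking proteins, 53 of 56 had a model, and the 4 were GOSR1, STX16, USE1 and VPS29, of which STX16, USE1 and VPS29 had a skipped one. The 30 nt exon of GOSR1, a SNARE of the Golgi, was held by all 4 models. Among the proteasome and ubiquitin hydrolases, 37 of 40 had a model, and the 4 were BAP1, PSMA4, UCHL1 and UCHL3. Among cytoskeletal proteins, 42 of 46 had a model, and the 4 were ESPN, MYL6, PDLIM7 and SPTAN1. The 28 nt exon of MYL6, a myosin light chain, began at codon 2 of 152 in all 3 models, and MYL4 and MYL6B had an exon of that length and phase at codons 46 and 59. PDLIM7, an actin-associated protein, had a 17 nt exon in its 5′ UTR, held by 1 model and skipped by 4. The shares of genes with a model that had a microexon were 7.55% for trafficking, 10.8% for the proteasome and hydrolases and 9.52% for the cytoskeleton, against 3.79% of all genes. Each rests on 4 genes from a list chosen with earlier results known, and nothing is read from them.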

How the data were processed

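The 40 libraries hold polyadenylated RNA from 4 fractions of H9 NPC and ESC. Libraries were made with 15 PCR cycles (17 for monosomes), per the labels' protocols. The values used were the first and last positions, in nt, of exons and coding regions in the models deposited by the authors. These deposited positions are coordinates and carry no level. STAR 2.7.8a and Salmon 1.9.0 are named without a role per the submitters' processing notes. Not given in the sources used here are the genome build, the model builder, the coding-region caller, the filters and which libraries entered the catalogue. The coordinates were checked against RefSeq (GRCh38.p14): 45 of 45 internal exons inside promoter windows had AG before and GT after them, and 409 of 410 microexons with a RefSeq gene on the same chromosome lay within its span. Per-sample columns not used numbered 0.

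Internal exons were taken once per gene identifier, chromosome and strand. Phase, first codon and position came from the longest coding region that holds the exon. Codon counts with and without an exon came instead from the pair of coding models with the fewest other differing introns. They can therefore be lower than in the longest coding region, as for ESPN, with 289 codons in its pair and 319 in the longest. Shares have 95% Wilson intervals. No test was run, because there are no values per library and depth is unknown. Intervals cover counting error in 1 catalogue only. Members, lists and families were chosen with earlier results of these data known. Named were all microexons of at most 12 nt, skipped coding ones, genes with 2 or more, those in the neural list, and the 5 longest and 5 shortest flanking introns; the rest by counts. Some families and genes that these choices cover are not reported here. Other genes were named as family members or as examples after their values were seen. GTF2I, GTF2IRD2B and MAGED4B have near-identical copies, so their exons are uncertain. Scripts in Python 3.11.15 with pandas 2.3.3, numpy 2.4.6, scipy 1.17.1 and matplotlib 3.10.9 were tested on simulated data. Alternatives covered length limits, the definition of skipping, placement, short introns and overlapping exons.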

Additional observations from a re-analysis of the deposited data

How the results depend on the processing

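Of 31 alternatives, 18 left a value within its interval (medians and counts within the set tolerance) and 13 moved it. A limit of 27 nt left 273 microexons, of which 16.5% were skipped and 46.9% were divisible by 3. A limit of 15 nt left 28, of which 25.0% were skipped and 64.3% were divisible by 3. The skipped share was 16.9% with any covering intron, 2.18% with at least 2 models on both sides, 20.9% in genes with at least 2 models and 23.1% among exons spanned by at least 2 models. Among all internal exons spanned by at least 2 models, 12.2% were skipped. The share inside the coding region was 79.9% when required in every coding model and 88.7% without exons that overlap a longer one. The share divisible by 3 was 59.3% among skipped exons, 73.0% among those skipped and coding, and 37.2% without exons of 30 nt. The values from exons spanned by at least 2 models, without 30 nt and from skipped coding exons come from alternatives chosen after seeing the data. Subsets change the value by their construction; for the others the cause was not tested. The median shorter flank was 512 nt at 27 nt or less and 542 nt at 15 nt or less. No paired analysis was possible because the catalogue holds no value per library. Depth is unknown, so how many microexons or skipping models were missed cannot be given.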

Other observations

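Microexons also occurred in non-coding RNA genes and in models without a deposited coding region. GAS5, a non-coding host gene of small nucleolar RNAs, had exons of 23, 30 and 30 nt. The 23 nt exon was held by 2 of its 5 models and skipped by 2, and one of the 30 nt exons was held by all 5 and lay 5′ of a coding region that at least 1 of these models was given. SNHG1, another such host gene, had exons of 26 and 29 nt separated by an intron of 129 nt, the first held by 1 of 7 models and the second by 6. SNHG4 had an exon of 30 nt in its 1 model, and CRNDE, a long non-coding RNA, had one of 30 nt in 1 of 5 models. Some protein-coding genes were in the same class. The selenoprotein genes GPX3, GPX4 and SELENOW had microexons of 27, 25 and 25 nt in models without a deposited coding region, and that of GPX3 was skipped in 1 of its 3 models. RPL41, which encodes a very small ribosomal protein, had adjacent exons of 25 and 23 nt, also in models without one.

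In untranslated regions, the skipped microexons included those of HNRNPC, which binds pre-mRNA, with a 26 nt exon held by 2 models and skipped by 2. GABPB1, a subunit of an ETS transcription factor, had a 24 nt exon held by 1 and skipped by 5. LRRC28 had a 17 nt exon held by 1 and skipped by 5, and MRPL33, a mitochondrial ribosomal protein, had a 19 nt exon in the 3′ UTR held by 4 and skipped by 1. RPS24, a ribosomal protein, had a 22 nt exon that holds the last coding base, held by 1 model and skipped by 1.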
